A study of Mus musculus with 36 samples.

Results

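Expression on day 4 of differentiation was compared with expression on day 0 in Xmas mouse embryonic stem cells (mESCs), using the 4 RNA-seq libraries of each day, which are 8 of the 36 libraries of the series. Xmas mESCs are female lines of strain C57/Bl6 in which the X chromosomes carry different fluorescent reporters at Hprt, GFP for one and mCherry for its homologue. Each day has 2 libraries of line X14 (replicates 1 and 2) and 2 of line X18 (replicates 3 and 4), labelled double (replicates 1 and 3) or single (replicates 2 and 4), and the labels do not say what these words mean. Day 0 cells had been expanded in 2i medium, which holds inhibitors of the kinases MEK and GSK3, together with LIF, without feeder cells. Day 4 cells had been weaned stepwise into a serum medium without 2i or LIF (DME HiHi). All 8 libraries therefore share the strain and come from female reporter lines, and only 2 lines stand behind them. The paper reports that Xmas mESCs positive for a single reporter held only that reporter's allele. It uses the reporters to tell XX cells from XO cells, which have 1 X chromosome. If double and single refer to the reporters, the libraries do not share the number of X chromosomes or both alleles. The study describes the replicates of this course as independent. Nothing in the labels says that they are separate cultures, so p-values measure the spread between libraries, which may in part be technical. This spread was pooled over all 36 libraries and 9 days, and need not match that of day 0 or day 4.

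Naive mESCs resemble the epiblast before implantation. Signalling by LIF and STAT3, with the inhibitors of 2i, keeps a set of transcription factors such as Klf4, Esrrb, Tfcp2l1 and Nanog active in them. When the inhibitors and LIF are withdrawn, FGF signalling through ERK resumes, the naive factors are lost, and the cells pass through a formative into a primed state like that of the epiblast after implantation, in which Otx2, Pou3f1 and the de novo DNA methyltransferases are high. Pou5f1 and Sox2 are expressed in both states. Exit from the naive state is also the time when female cells begin to inactivate an X chromosome.

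Levels are given as RPM, the number of reads of a gene per 1000000 reads of its library, in the order of replicates 1 to 4. Where a day had no read or 1 to 3 reads of a gene, a ratio or an at-least fold is given. It compares the reads of the 4 libraries of a day added up, over their added depth, so that deeper libraries weigh more and it can differ from a ratio of mean RPM values. A gene was called higher or lower on day 4 when its Benjamini-Hochberg adjusted p in limma was under 0.05 over the 14612 genes tested, and its change reached 1 on the log2 scale in that direction. The words rose and fell are used for called genes only, fold changes are on the log2 scale as day 4 minus day 0, and each is followed by its standard error (SE). Levels of different genes in RPM are not corrected for gene length and are not compared with each other. In bulk RNA a loss of cells of a type and a loss of RNA per cell cannot be told apart.

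The day 0 libraries held 756136 to 1916784 reads in genes and the day 4 libraries 1274068 to 1558966. The day 0 libraries differed more from each other than those of day 4, with a chi-squared per gene of 6.63 to 36.6 against 1.44 to 6.69 between pairs of libraries, a value that counting error alone would put near 1. Long and short genes were balanced differently among them. The longest and shortest 25% of the genes tested were compared where their mean was at least 10 RPM (2717 and 1864 genes). The long genes stood 0.46 above the short ones in replicate 1 of day 0 (log2, relative to the mean of all libraries). They stood 0.51, 1.48 and 1.03 below them in replicates 2, 3 and 4, against -0.18 to 0.16 on day 4. Within pairs, X-linked genes stood higher in the double than in the single library in the X18 pair of day 0 and in both pairs of day 4. In the X14 pair of day 0 the order was the opposite, with -0.78 in the library labelled double and 0.51 in the one labelled single (log2, relative to autosomal genes). On day 4 this balance was 0.33 and 0.45 in the libraries labelled double and -0.50 and -0.52 in those labelled single. Day 4 splits between the labels given below therefore run along this X-linked balance. Whether they reflect the number of X chromosomes was not tested. The comparison of the days does not use these words.

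Of the 14612 genes tested, 2720 (18.6%) differed between day 4 and day 0, 1785 (12.2%) higher and 935 (6.4%) lower on day 4. Over all genes tested the median fold change was 0.12 on the log2 scale, and the changes below are to be read against this shift. The share of called genes that were higher was 65.6% and became 58.2% when libraries were scaled to their 75th percentile and 54.5% (1327 higher and 1109 lower) after quantile normalization. Without the 2 X14 libraries of day 0, 4355 genes were called, 3131 of them higher. Of the genes called higher, 1467 were higher in all 4 same-numbered pairs, and of those called lower, 823 were lower in all 4. These genes had been selected for a difference in that direction, so the agreement follows in part from the call. The share over all genes was not counted, and the numbers need not pair the libraries. All 4 day 4 libraries lay above all 4 day 0 libraries in 1257 of the genes called higher, where 12.4% of all genes tested do so, and below them in 659 of the genes called lower, against 7.83% of all genes. Day 4 had the highest mean of the 9 days in 483 of the 1785 genes called higher and the lowest mean in 310 of the 935 called lower, so for most of the called genes the extreme lay on another day. No read was found on day 0 for 121 of the genes that were higher, and none on day 4 for 82 of those that were lower.

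**Figure D1:**
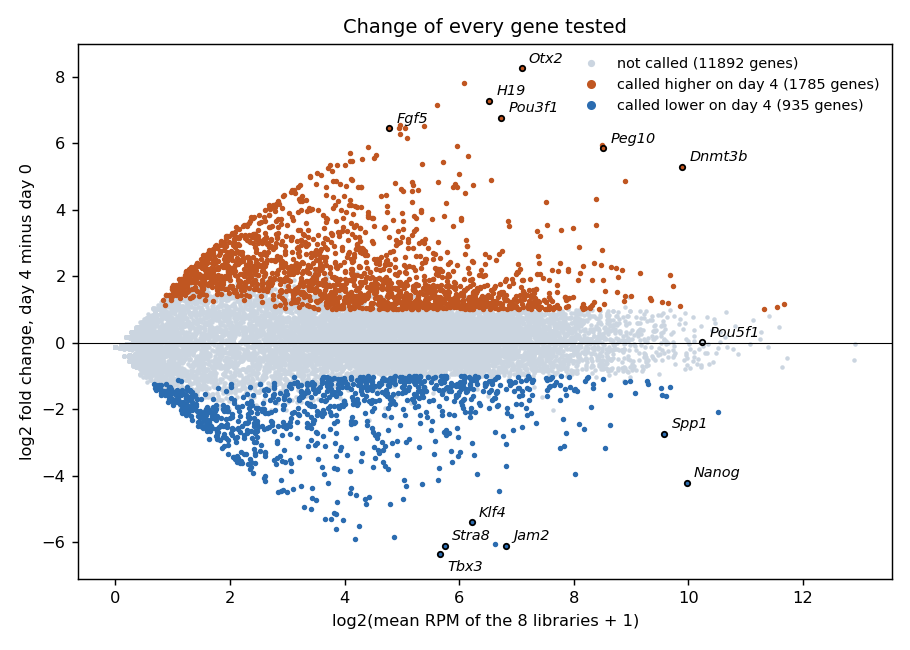
Log2 fold change from day 0 to day 4 (vertical axis) of the 14612 genes tested against log2 of their mean RPM over the 8 libraries plus 1 (horizontal axis), with the 1785 genes called higher in orange, the 935 called lower in blue and the rest in grey. Otx2 and Tbx3 lie at the upper and lower ends, while Pou5f1 lies near 0 among the strongly expressed genes.

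The markers of the primed state, Otx2 and Dnmt3b, separated the days. Day 4 was chosen for its high primed programme with these genes as markers, so their values describe that choice. Otx2 (chr14:48657679-48667644, minus strand, mm10), a homeobox factor of the post-implantation epiblast, had 1.85, 0.463, 0 and 0 RPM on day 0 and 273, 243, 307 and 257 RPM on day 4. It rose by 8.25 ± 0.44 (SE, adjusted p = 1.01e-15). This was the largest rise among called genes with at least 10 RPM on the higher day and all 4 pairs moving alike. In this ranking 0 reads counted as 0.9 read, so a larger rise in genes without reads on day 0 would not show. The mean of Otx2 over the 4 libraries was higher on day 4 (270.1 RPM) than on any other day. Dnmt3b (chr2:153649450-153687730, plus strand), a de novo DNA methyltransferase, had 94.8, 58.8, 14.4 and 46.9 RPM on day 0 and 1240.1, 2761, 1172 and 2221 RPM on day 4. It rose by 5.29 ± 0.46 (SE, adjusted p = 1.6e-10), and its mean of 1849 RPM on day 4 was also the highest of the course, against 262 RPM on day 8. The groups of both genes did not overlap. In Dnmt3b the 2 day 4 libraries labelled single were the highest, and in Otx2 the 4 day 4 libraries were close together.

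Another primed marker and the naive markers were checked against the labels of the days in the same way. Fgf5, a growth factor of the primed epiblast, had no read in any of the 4 libraries on day 0 and 55.1, 69.2, 41.7 and 45.96 RPM on day 4, and its mean was 5.02 RPM on day 5 and 101 RPM on day 6. The naive markers Klf4, Esrrb, Tfcp2l1 and Zfp42 fell without overlap. The naive programme was low but still measurable on day 4: Nanog had 196, 36.9, 229.8 and 57.7 RPM. Its mean was 130.2 RPM on day 4, 117 RPM on day 5, 341 RPM on day 6 and 152 RPM on day 8. Pou5f1, the core factor of both states, had 818, 1289.6, 1508 and 1275 RPM on day 0 and 1178, 1044, 1303 and 1296 RPM on day 4, and its log2 fold change was 0.01 ± 0.28 (SE, adjusted p = 0.984). Sox2 had 379.9, 529, 249.7 and 227 RPM on day 0 and 301, 217, 293 and 165 RPM on day 4, with a difference of -0.46 ± 0.26 (SE, adjusted p = 0.198). The groups of both core factors overlapped.

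**Figure D2:**
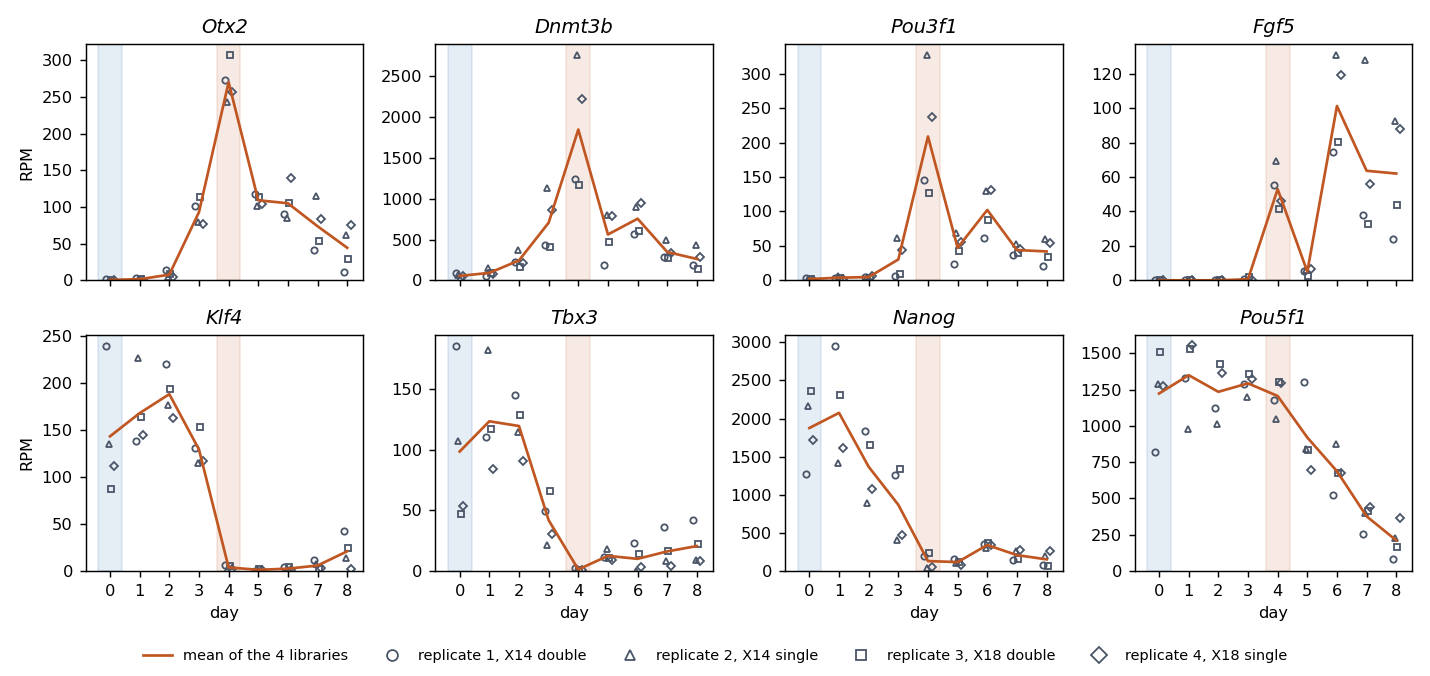
RPM (vertical axes) of Otx2, Dnmt3b, Pou3f1, Fgf5, Klf4, Tbx3, Nanog and Pou5f1 in each of the 4 libraries of days 0 to 8 (symbols) with the mean of each day (line), and with days 0 and 4 shaded. The means of Otx2, Dnmt3b and Pou3f1 are highest on day 4, that of Fgf5 is highest on day 6, and Klf4 and Tbx3 are close to 0 by day 4 while Pou5f1 is near its day 0 level.

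The 12 largest rises held 3 transcription factors, a transcriptional inhibitor, 2 signalling genes and several membrane proteins. Pou3f1, a POU factor that acts with Otx2 in the formative epiblast, had 2.78, 2.32, 2.06 and 0 RPM on day 0 and 145, 327, 127 and 237 RPM on day 4 and rose by 6.77 ± 0.51 (SE, adjusted p = 9.99e-12). Vrtn, a DNA-binding protein known for its role in vertebral number, had 0.925, 0, 0 and 0 RPM on day 0 and 83.3, 62.1, 57.4 and 55.5 RPM on day 4, a ratio of pooled levels of 206 (95% counting interval 56.8 to 1710.1). The inhibitor was Id1, which binds basic helix-loop-helix factors and is a direct target of BMP signals, and its 4 libraries went from 0, 0.463, 0 and 0.854 RPM to 127, 58.2, 138 and 58.3 RPM. The ratio of its pooled levels was 308 (95% counting interval 84.9 to 2548). In both genes every day 4 library stood far above every day 0 library.

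Car4, a carbonic anhydrase anchored to the cell surface, had no read in any of the 4 libraries on day 0 and 132, 149, 105 and 146 RPM on day 4. Its level was at least 286-fold higher on day 4, taking 3 reads over the 4 day 0 libraries (0.464 RPM) as the floor, a limit that covers counting error only. Slc40a1, the iron exporter ferroportin, had no read in any of the 4 libraries on day 0 and 88.7, 40.1, 83.3 and 30.8 RPM on day 4, at least 129.8-fold higher. Enpp2, the secreted enzyme autotaxin that makes lysophosphatidic acid, had no read in any of the 4 libraries on day 0 and 27.6, 105, 15.8 and 95.3 RPM on day 4, at least 131-fold higher. These 3 genes share an absence of reads on day 0, but they differ in their spread on day 4. Car4 was alike in all libraries, Slc40a1 was higher in the 2 libraries labelled double, and Enpp2 was higher in the 2 labelled single. Sema6a, a transmembrane semaphorin of axon guidance, had 0.925, 0, 0 and 0 RPM on day 0 and 35.6, 163, 36.6 and 89.1 RPM on day 4, a ratio of 259 (95% counting interval 71.4 to 2147). Pcdh1, a protocadherin of cell contacts, had 0.925, 0.926, 0 and 0 RPM on day 0 and 58.5, 99.6, 41.1 and 65.02 RPM on day 4 and rose by 6.15 ± 0.50 (SE, adjusted p = 3.93e-11). The others of the 12 were Otx2, Fgf5, the imprinted RNA H19 and the ERK inhibitor Spry4.

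The 12 largest falls held 3 naive or posterior transcription factors and a series of membrane transporters, serpins and germ cell genes. Tbx3, a T-box factor that maintains the naive state downstream of LIF, had 186, 107, 47.3 and 53.8 RPM on day 0 and 2.69, 0.647, 0.563 and 1.12 RPM on day 4 and fell by 6.36 on the log2 scale (SE 0.69, adjusted p = 1.43e-08). Klf4, a Krüppel-like factor induced by STAT3, had 239.7, 135, 87.4 and 112 RPM on day 0 and 6.05, 1.29, 5.63 and 2.24 RPM on day 4, a change of -5.40 ± 0.61 (SE, adjusted p = 3.07e-08). Cdx1, a caudal homeobox factor and Wnt target, had 48.1, 18.5, 10.3 and 23.9 RPM on day 0 and no read in any of the 4 libraries on day 4, at least 61.9-fold lower by pooled reads. All 3 were without overlap, and the level left on day 4 differed, from 0 reads for Cdx1 to a few RPM for Klf4.

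Jam2, a junctional adhesion molecule, had 226, 205, 231 and 218 RPM on day 0 and 4.71, 1.29, 10.1 and 1.68 RPM on day 4, and was the most evenly expressed of these genes on day 0. Aqp3, a water and glycerol channel, had 145, 301, 203 and 117 RPM on day 0 and 7.39, 0.647, 6.76 and 1.68 RPM on day 4, with the higher values on day 4 in the 2 libraries labelled double and an SE of 1.17 on its change of -6.05. Trpm1, a cation channel of melanocytes and retina, had 28.2, 52.3, 33.9 and 22.2 RPM on day 0 and no read in any of the 4 libraries on day 4, at least 79.2-fold lower against a floor of 0.455 RPM for the day 4 group. Slc15a1, a carrier of small peptides, had 37.01, 27.3, 20.6 and 23.05 RPM on day 0 and no read in any of the 4 libraries on day 4, at least 63.2-fold lower. Channels and carriers therefore made up 3 of these 12 genes. Mitf, the melanocyte factor counted below among the naive factors and known to drive Trpm1 in melanocytes, likewise had no read on day 4.

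Stra8, the gene that retinoic acid induces before meiosis, had 68.5, 55.1, 94.6 and 197 RPM on day 0 and 2.69, 0, 3.94 and 0 RPM on day 4, a change of -6.11 ± 0.67 (SE, adjusted p = 2.09e-08). Pramel7, a naive-state protein that promotes the degradation of Uhrf1, had 10.2, 56.03, 64.7 and 11.95 RPM on day 0 and 0.672, 0, 0 and 0 RPM on day 4. It was 224 (95% counting interval 39.8 to 8901) times lower. Hal, the histidine-degrading enzyme, had 40.7, 12.5, 12.3 and 50.4 RPM on day 0 and 0, 0.647, 0.563 and 0.561 RPM on day 4, 63.2 (95% counting interval 21.3 to 309) times lower. The serine protease inhibitors Serpinb6c and Serpinb1a were also among the 12. The former had 24.5, 47.7, 91.5 and 58.05 RPM on day 0 and 3.36, 0, 0.563 and 0 RPM on day 4. The latter had 11.6, 21.3, 34.9 and 24.8 RPM on day 0 and no read in any of the 4 libraries on day 4. In none of these genes did the 2 groups of 4 libraries overlap.

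**Figure D3:**
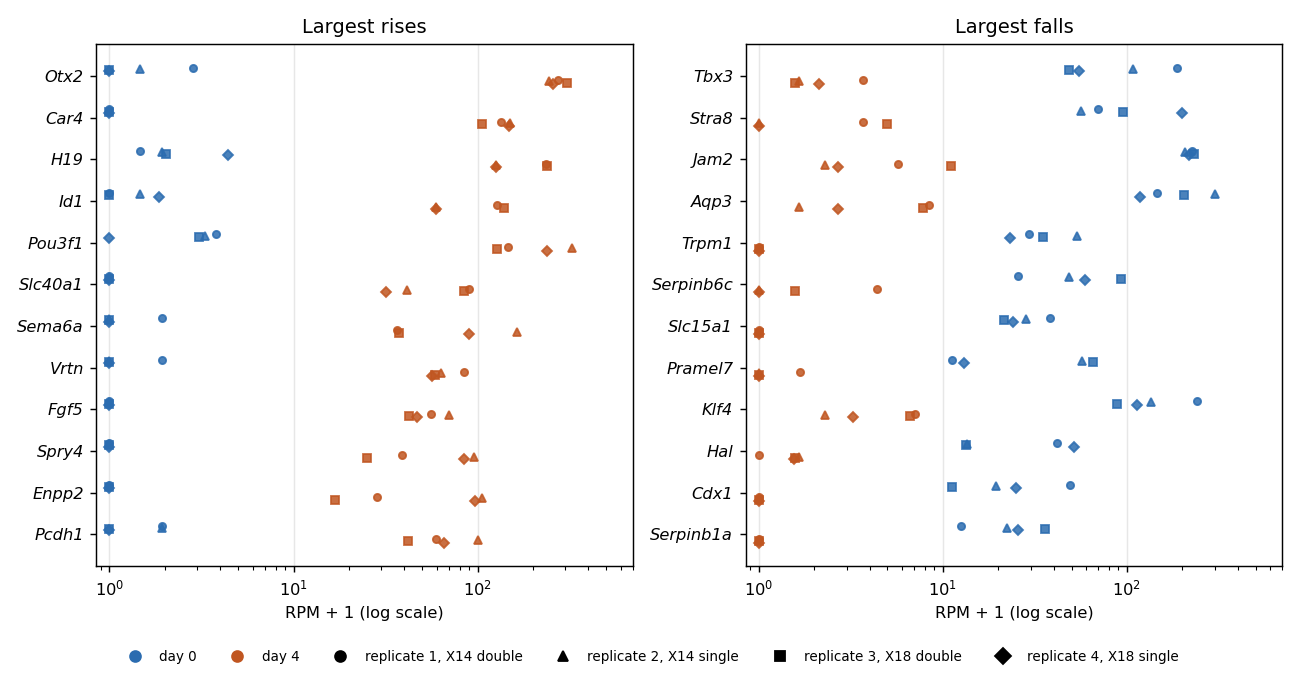
RPM plus 1 on a log axis (horizontal) in each of the 4 day 0 libraries (blue) and 4 day 4 libraries (orange) for the 12 genes with the largest rises (left) and the 12 with the largest falls (right), with symbols for the replicates. Day 0 and day 4 are separated in every gene shown, and the day 4 values of Spry4, Enpp2 and Sema6a split into higher single and lower double libraries.

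All 15 naive transcription factors tested fell, where 6.4% of all genes did. Their median log2 fold change was -3.77, against 0.12 for all genes, and their summed level went from 3114 to 4641 RPM on day 0 down to 235 to 637 RPM on day 4. The sizes of the falls differed. After Tbx3 and Klf4, the largest were those of Mitf, with 22.2, 13.9, 10.3 and 30.7 RPM on day 0 and no read in any of the 4 libraries on day 4 (at least 42.1-fold lower), and Prdm14, a PR-domain repressor of DNA methylation and FGF signalling, with 55.98, 81.96, 36.999 and 29.02 RPM on day 0 and 6.05, 0, 3.94 and 0 RPM on day 4. Nanog, the homeobox factor of the naive core, had 1271, 2161, 2356 and 1716 RPM on day 0 and fell by 4.20 on the log2 scale (SE 0.46, adjusted p = 1.79e-08).

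Tfcp2l1, a STAT3-induced Grainyhead-like factor, had 1182, 381, 168 and 228 RPM on day 0 and 39.7, 12.9, 51.8 and 11.2 RPM on day 4 and changed by -3.95 ± 0.56 (SE, adjusted p = 2.2e-06). Esrrb, the orphan nuclear receptor that GSK3 inhibition sustains, had 751, 428, 158 and 223 RPM on day 0 and 52.4, 22.6, 59.1 and 24.1 RPM on day 4 and changed by -3.18 ± 0.45 (SE, adjusted p = 1.89e-06). Nr0b1 (Dax1), a nuclear receptor corepressor, had 90.7, 181, 98.7 and 84.5 RPM on day 0 and 13.4, 8.41, 9.57 and 10.1 RPM on day 4 and changed by -3.40 ± 0.40 (SE, adjusted p = 6.3e-08). For all 3, the lowest day 0 library was well above the highest of day 4. Replicate 1 held the highest day 0 level of Tfcp2l1 and Esrrb, and replicate 2 that of Nr0b1.

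The smaller falls were those of Zfp42 (Rex1), the zinc finger protein used as a naive reporter, and of the Krüppel-like factors Klf2 and Klf5. Zfp42 had 77.3, 100.5, 145 and 180.1 RPM on day 0 and 30.9, 25.9, 46.2 and 34.8 RPM on day 4 and changed by -1.83 ± 0.31 (SE, adjusted p = 4.1e-05). Klf2 had 169, 191, 81.2 and 121 RPM on day 0 and 78.6, 18.1, 96.3 and 24.1 RPM on day 4, so that its groups overlapped. The change in Klf2 of -1.65 ± 0.56 (SE, adjusted p = 0.0287) was no longer called without replicate 2 of day 0 (-1.47), replicate 2 of day 4 (-1.24) or replicate 4 of day 4 (-1.37). Klf5 had 99.9, 51.9, 24.7 and 43.5 RPM on day 0 and 20.8, 16.8, 20.3 and 10.6 RPM on day 4, and its change of -1.55 ± 0.49 (SE, adjusted p = 0.0181) was lost without replicate 1 of day 0 (-1.20) or replicate 4 of day 4 (-1.34). On day 4, both libraries labelled double stood above both labelled single in 9 of the 15 factors and below them in 1, where 22.7% and 27.7% of all genes tested had these orders. With 2 libraries of each kind this is a description without a test.

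Of the 17 formative and primed transcription factors tested, 12 rose and 0 fell, with a median of 2.41, where 12.2% of all genes rose. Their highest mean of the course lay on day 4 in 8, as it did in 1288 of all 14612 genes tested. Day 4 was chosen as the day when the primed programme is highest, so these counts are a description. After Otx2 and Pou3f1, the largest rise among those named here was that of Sall2, a Spalt zinc finger factor, with 6.48, 3.24, 1.03 and 4.27 RPM on day 0 and 38.99, 119, 33.8 and 74.5 RPM on day 4, a change of 4.24 ± 0.59 (SE, adjusted p = 1.51e-06). The HMG-box factor Sox4 had 13.9, 2.78, 3.08 and 10.2 RPM on day 0 and 65.9, 116, 47.9 and 101 RPM on day 4 and changed by 3.72 ± 0.62 (SE, adjusted p = 2.49e-05). Grhl2, a Grainyhead factor that opens epithelial enhancers in the formative state, had 7.40, 12.04, 6.17 and 2.56 RPM on day 0 and 88.1, 58.2, 72.1 and 50.4 RPM on day 4 and changed by 3.42 ± 0.39 (SE, adjusted p = 4.03e-08). Sall2 and Sox4 were higher in the 2 day 4 libraries labelled single, and Grhl2 was higher in the 2 labelled double.

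Lef1, the nuclear partner of beta-catenin, had 34.2, 20.4, 3.08 and 17.1 RPM on day 0 and 129.7, 118, 125 and 103 RPM on day 4 and changed by 3.10 ± 0.54 (SE, adjusted p = 5.66e-05). Foxd3, a forkhead factor needed by the epiblast, had 6.94, 12.04, 6.17 and 0 RPM on day 0 and 30.9, 36.9, 27.6 and 31.9 RPM on day 4 and changed by 2.83 ± 0.58 (SE, adjusted p = 0.000446). Among members with high levels, Zic2 and Tead2 were not called. Zic2 had 48.6, 50.5, 26.7 and 17.9 RPM on day 0 and 32.3, 101, 21.4 and 82.4 RPM on day 4, with 0.57 ± 0.53 (SE, adjusted p = 0.458). Tead2, a partner of the Hippo effector Yap, had 215, 174, 89.4 and 118 RPM on day 0 and 134, 212, 151 and 240.5 RPM on day 4, with 0.35 ± 0.22 (SE, adjusted p = 0.249). Their groups overlapped.

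The 16 shared pluripotency genes moved in both directions. Of these, 6 rose and 4 fell, with a median of 0.25. The RNA-binding proteins of the Lin28 family, which block the maturation of let-7 microRNAs, rose. Lin28a had 89.3, 21.3, 8.22 and 55.5 RPM on day 0 and 489, 817, 519 and 678 RPM on day 4, a change of 4.33 ± 0.58 (SE, adjusted p = 8.97e-07). Lin28b had 12.96, 6.02, 10.3 and 15.4 RPM on day 0 and 38.3, 90.6, 35.5 and 62.2 RPM on day 4, a change of 2.32 ± 0.45 (SE, adjusted p = 0.000248). Utf1, a chromatin factor of pluripotent cells, had 50.4, 68.99, 18.5 and 29.02 RPM on day 0 and 300.5, 477, 339.6 and 455 RPM on day 4 and changed by 3.38 ± 0.27 (SE, adjusted p = 3.31e-11). The means of all 3 were highest on day 4. Dppa3 (Stella), a maternal factor that protects 5-methylcytosine from conversion, fell from 33.8, 102, 186 and 98.2 RPM to 24.2, 10.4, 26.5 and 7.85 RPM, a change of -2.56 ± 0.65 (SE, adjusted p = 0.00369). Dppa5a and Tdh fell as well. Fbxo15, an F-box protein of naive cells, had 369, 684, 869 and 682 RPM on day 0 and 142, 27.2, 158 and 38.1 RPM on day 4 and changed by -3.16 ± 0.64 (SE, adjusted p = 0.000389). Tdgf1 (Cripto), the coreceptor of Nodal, had 781, 939.98, 1402 and 1329.9 RPM on day 0 and 825, 836, 883 and 952 RPM on day 4, with -0.31 ± 0.41 (SE, adjusted p = 0.624), and was not called.

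The DNA methylation machinery was remodelled in its de novo members. Of 6 writers and cofactors tested, 3 rose and 0 fell (median 2.13), and these were the 3 proteins that set new methylation. Besides Dnmt3b, Dnmt3a had 84.7, 52.8, 31.9 and 46.9 RPM on day 0 and 421, 842, 420.1 and 790.3 RPM on day 4, a change of 3.53 ± 0.40 (SE, adjusted p = 3.07e-08). Dnmt3l, the catalytically inactive partner of both, had 52.7, 46.3, 11.3 and 29.02 RPM on day 0 and 1089.6, 617, 1250.2 and 696 RPM on day 4, a change of 4.87 ± 0.44 (SE, adjusted p = 2.76e-10). On day 4 Dnmt3a and Dnmt3b were higher in both libraries labelled single and Dnmt3l was higher in both labelled double. The mean of Dnmt3l was highest on day 3 (989 RPM) and was 74.9 RPM on day 8. Uhrf1, which recruits the maintenance enzyme to replicated DNA, had 617, 315, 161 and 294 RPM on day 0 and 487, 377, 433 and 331 RPM on day 4, with 0.38 ± 0.27 (SE, adjusted p = 0.328). Hells, a remodelling helicase, had 517, 449.6, 301 and 478 RPM on day 0 and 678, 676, 728 and 775 RPM on day 4 and a difference of 0.74 ± 0.21 (SE, adjusted p = 0.00895), which was under the fold required.

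Among the demethylation genes the TET dioxygenases, which oxidise 5-methylcytosine, did not move together. Tet1 had 339.6, 98.2, 87.4 and 76.8 RPM on day 0 and 146, 210.3, 163 and 165 RPM on day 4, with 0.47 ± 0.47 (SE, adjusted p = 0.5), and its replicate 1 of day 0 stood apart from the other 3. Tet2 had 124, 56.95, 42.1 and 48.7 RPM on day 0 and 14.1, 16.8, 22.5 and 21.9 RPM on day 4 and fell, with -1.74 ± 0.49 (SE, adjusted p = 0.00789). Tet3 had 12.5, 8.33, 5.14 and 0 RPM on day 0 and 33.6, 23.9, 30.97 and 21.3 RPM on day 4 and rose, with 2.58 ± 0.61 (SE, adjusted p = 0.00187). One member thus fell while a relative rose. Tdg, the glycosylase that removes oxidised bases, had 12.96, 13.4, 4.11 and 11.95 RPM on day 0 and 21.5, 29.8, 18.6 and 20.7 RPM on day 4 and rose by 1.21 ± 0.33 (SE, adjusted p = 0.00654). Without replicate 3 of day 0, its lowest library, the change was 0.80 and was not called.

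Most ERK response genes rose. Of the 17 tested, 11 rose, where 12.2% of all genes did, and 0 fell (median 1.54), and 1 further member, Egr2, was in the table but did not pass the filter on low values. The MAP kinase phosphatases, which switch ERK off, included Dusp6 with 7.40, 4.63, 3.08 and 5.98 RPM on day 0 and 90.1, 199, 101 and 184 RPM on day 4, a change of 4.75 ± 0.50 (SE, adjusted p = 8.83e-09), and Dusp4 with 0, 1.85, 0 and 0 RPM on day 0 and 12.8, 45.9, 14.6 and 54.9 RPM on day 4, a change of 4.93 ± 0.59 (SE, adjusted p = 1.08e-07). Spry4, a Sprouty inhibitor of receptor signalling, had no read in any of the 4 libraries on day 0 and 37.6, 95.1, 24.2 and 82.96 RPM on day 4, at least 129-fold higher. In all 3 the 2 day 4 libraries labelled single were above the 2 labelled double, as they were in 11 of the 17 genes tested, beside 27.7% of all genes. Myc, the growth factor-induced transcription factor, had 1.85, 0.463, 0 and 0 RPM on day 0 and 12.8, 61.5, 14.1 and 42.04 RPM on day 4 and changed by 4.89 ± 0.74 (SE, adjusted p = 6.38e-06), and its mean was 8.21 RPM on day 5 and 39.8 RPM on day 8. Ier3, an immediate early gene, had 7.87, 7.41, 0 and 4.27 RPM on day 0 and 41.7, 54.3, 51.8 and 54.9 RPM on day 4 and changed by 3.69 ± 0.40 (SE, adjusted p = 1.48e-08).

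Some genes of the ERK list were not called. Ccnd1, cyclin D1, had 87.9, 104, 44.2 and 49.5 RPM on day 0 and 75.3, 179, 62.5 and 135 RPM on day 4, with 0.63 ± 0.46 (SE, adjusted p = 0.329). Ier2, another immediate early gene, had 73.1, 86.6, 42.1 and 58.9 RPM on day 0 and 47.1, 60.2, 48.99 and 59.97 RPM on day 4, with -0.23 ± 0.27 (SE, adjusted p = 0.587). Both overlapped between the days. The FGF ligands and receptors gave 4 genes higher and 1, Fgf17, lower of 11, and 0 lower without replicate 1 of day 0. Fgf4, the ligand that mESCs make in the naive state, had 325, 302, 153 and 206 RPM on day 0 and 302, 267, 327 and 312 RPM on day 4, with 0.35 ± 0.25 (SE, adjusted p = 0.319), so that it was Fgf5 that was gained beside it. Fgf15, a ligand of the endocrine subfamily, had 0.925, 0, 0 and 0 RPM on day 0 and 32.9, 44.6, 23.1 and 30.8 RPM on day 4, a ratio of 105 (95% counting interval 28.7 to 872). Of the receptors, Fgfr1 had 80.97, 53.7, 21.6 and 17.1 RPM on day 0 and 128, 124, 96.9 and 73.99 RPM on day 4, a change of 1.54 ± 0.34 (SE, adjusted p = 0.00106). Fgfr2 had 10.6, 8.80, 5.14 and 11.95 RPM on day 0 and 28.2, 18.1, 25.3 and 23.5 RPM on day 4, a change of 1.43 ± 0.35 (SE, adjusted p = 0.00233). Fgf8, the ligand of the primitive streak, had 1 read in the day 0 libraries and 4.03, 0, 3.38 and 0 RPM on day 4, and it was not called (1.22 ± 0.58 SE, adjusted p = 0.123).

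Of 16 genes of the LIF and STAT3 pathway tested, 6 fell and 2 rose (median -0.79). Klf4, Tfcp2l1 and Gbx2, which are also in the naive list, are among the 6. Bcl3, an IκB protein and STAT3 target, had 68.01, 42.1, 16.4 and 37.6 RPM on day 0 and 2.69, 2.59, 3.38 and 5.04 RPM on day 4 and changed by -3.47 ± 0.43 (SE, adjusted p = 1.91e-07). Socs3, the feedback inhibitor of the LIF receptor, had 94.8, 50.01, 17.5 and 55.5 RPM on day 0 and 12.8, 10.4, 27.03 and 12.3 RPM on day 4 and changed by -1.68 ± 0.33 (SE, adjusted p = 0.000239). Icam1, an adhesion molecule, had 134, 139, 103 and 117 RPM on day 0 and 29.6, 25.2, 38.3 and 24.7 RPM on day 4 and changed by -2.08 ± 0.28 (SE, adjusted p = 8.16e-07). The kinases Pim1 and Pim3, also STAT3 targets, were not called, with 0.37 ± 0.26 (SE, adjusted p = 0.311) for the former and 0.16 ± 0.18 (SE, adjusted p = 0.578) for the latter. The 2 that rose, Junb and Ifitm1, are named after their values were seen. The count was 1 without replicate 3 or 4 of day 0 or replicate 2 or 4 of day 4, and 3 without replicate 1 of day 0.

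Wnt targets, which GSK3 inhibition in 2i keeps active, gave 2 genes higher and 2 lower of 14 tested (median 0.26, or 0.63 with genes at the floor placed at their bound). The 2 lower were Cdx1 and Notum, a secreted enzyme that inactivates Wnt ligands, which had 47.2, 50.5, 19.5 and 32.4 RPM on day 0 and 2.69, 0.647, 1.69 and 1.12 RPM on day 4 and changed by -4.70 ± 0.49 (SE, adjusted p = 7.77e-09). The 2 higher were the nuclear partners of beta-catenin, Lef1 and Tcf7. Tcf7 had 88.4, 44.5, 17.5 and 30.7 RPM on day 0 and 82.7, 105, 90.1 and 101 RPM on day 4, a change of 1.31 ± 0.32 (SE, adjusted p = 0.00301), which was 0.93 and not called without replicate 3 of day 0. Znrf3, a ubiquitin ligase for Wnt receptors, had 18.97, 12.04, 9.25 and 6.83 RPM on day 0 and 18.8, 20.7, 19.15 and 13.5 RPM on day 4, with 0.70 ± 0.43 (SE, adjusted p = 0.233).

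The Nodal pathway, which supports the primed state, had 3 genes higher and 2 lower of 15 tested (median 0.15). The ligand Nodal had 87.4, 110.2, 91.5 and 93.9 RPM on day 0 and 114, 51.1, 112 and 46.5 RPM on day 4, with -0.36 ± 0.32 (SE, adjusted p = 0.442), and on day 4 both libraries labelled double stood above both labelled single. Among intracellular members Foxh1 and Smad3 rose. Foxh1, the DNA-binding partner of Smad2, had 22.7, 12.04, 4.11 and 17.1 RPM on day 0 and 86.7, 71.8, 79.97 and 68.9 RPM on day 4, a change of 2.70 ± 0.36 (SE, adjusted p = 7.82e-07). Smad3, a receptor-activated Smad, had 20.4, 11.1, 7.19 and 5.98 RPM on day 0 and 35.6, 29.8, 42.8 and 28.03 RPM on day 4, a change of 1.76 ± 0.39 (SE, adjusted p = 0.000954). The receptor Acvr1b had 49.5, 13.9, 9.25 and 18.8 RPM on day 0 and 31.6, 51.1, 39.98 and 41.5 RPM on day 4, a change of 1.12 ± 0.38 (SE, adjusted p = 0.0272), and 5 of the 8 libraries, left out singly, ended this call (0.79 to 1.13). The shared effector Smad4 had 90.7, 61.1, 34.9 and 48.7 RPM on day 0 and 55.1, 70.5, 55.2 and 66.1 RPM on day 4, with 0.15 ± 0.22 (SE, adjusted p = 0.678). Pcsk6, a convertase that processes the Nodal precursor, had 149, 108, 33.9 and 49.5 RPM on day 0 and 20.8, 11.6, 23.1 and 11.8 RPM on day 4, and changed by -2.17 ± 0.47 (SE, adjusted p = 0.000858). Gdf3, a related ligand, had 122, 173, 207 and 193 RPM on day 0 and 75.3, 69.2, 92.9 and 66.1 RPM on day 4 and changed by -1.18 ± 0.21 (SE, adjusted p = 8.5e-05).

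The Id genes were the part of the BMP list with the largest changes. Of 14 tested, 4 were higher and 2 lower (median 0.43, 0.86 with bounds). After Id1, Id2 had 4.63, 3.24, 3.08 and 1.71 RPM on day 0 and 122, 51.1, 145 and 56.6 RPM on day 4, a change of 4.82 ± 0.42 (SE, adjusted p = 1.68e-10). Id3 had 0.463, 4.63, 6.17 and 4.27 RPM on day 0 and 89.4, 56.9, 69.8 and 50.4 RPM on day 4, a change of 4.57 ± 0.47 (SE, adjusted p = 5.03e-09). These are inhibitors of helix-loop-helix factors. Id1 and Id2 were higher in both day 4 libraries labelled double than in both labelled single, and their means were highest on day 4. The others called in this list, named after their values were seen, were Msx1 (higher) and Bmp7 and Id4 (lower), all under 15 RPM in every library. Without replicate 3 or 4 of day 4, 1 member and not 2 was called lower. The receptor Bmpr1a had 107, 90.3, 65.8 and 84.5 RPM on day 0 and 116, 111, 96.3 and 95.8 RPM on day 4, with 0.29 ± 0.22 (SE, adjusted p = 0.367). Smad5, an effector of BMP receptors, had 42.6, 21.8, 13.4 and 20.5 RPM on day 0 and 13.4, 31.1, 19.15 and 25.2 RPM on day 4, with -0.08 ± 0.35 (SE, adjusted p = 0.894). Serum holds BMP activity as general background, and whether the medium moved these genes was not tested.

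**Figure D4:**
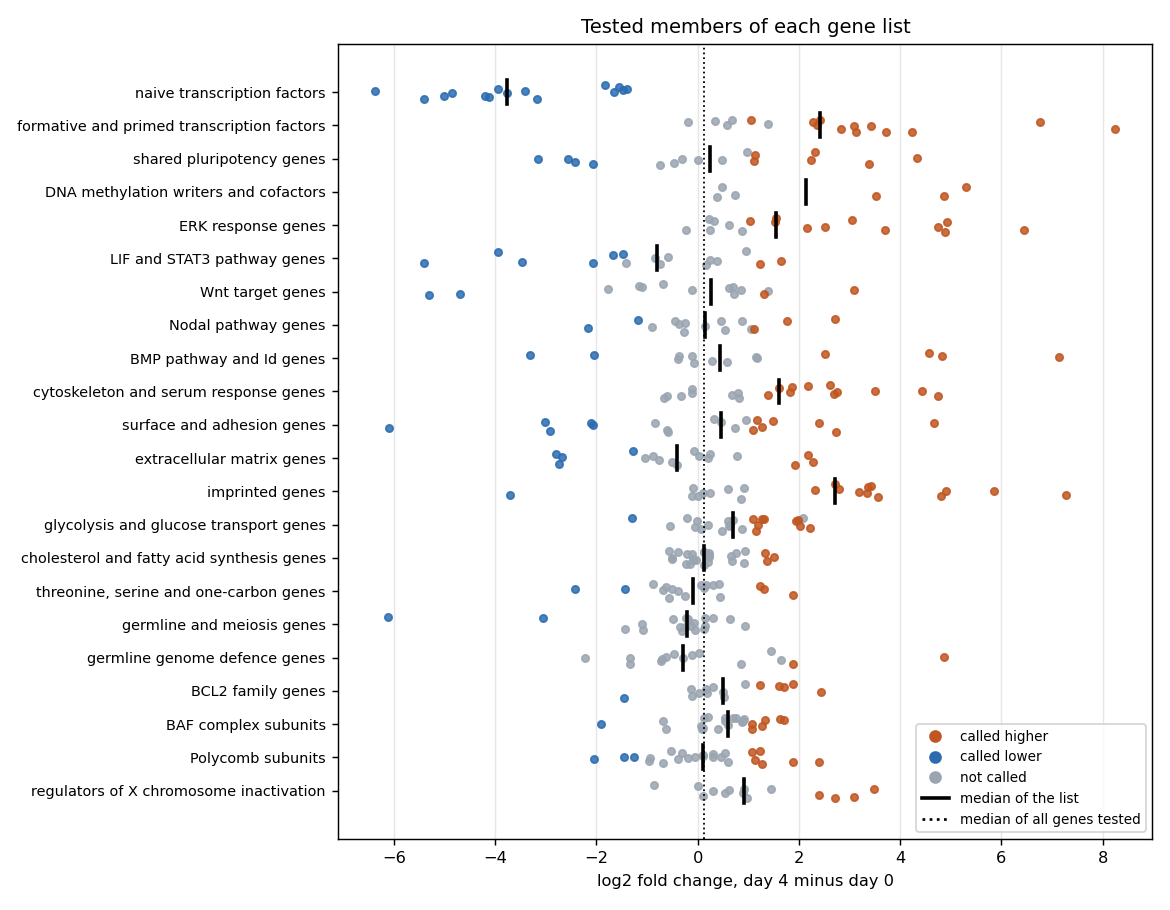
Log2 fold change from day 0 to day 4 (horizontal axis) of the tested members of 22 gene lists (rows), with members called higher in orange, lower in blue and not called in grey, the median of each list as a bar and the median of all genes as a dotted line. Every naive factor lies left of -1, the medians of the primed, DNA methylation, imprinted, ERK and cytoskeleton lists lie right of 1, and the germline lists straddle 0.

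At the cell surface, 7 of 19 adhesion and surface genes tested rose and 5 fell (median 0.46). The genes that rose were mostly epithelial. Epcam, an epithelial adhesion molecule, had 66.2, 70.4, 56.5 and 87.9 RPM on day 0 and 341, 331, 378 and 406 RPM on day 4 and changed by 2.39 ± 0.19 (SE, adjusted p = 2.85e-11). Cldn6, a claudin of tight junctions in early epithelia, had 10.6, 3.24, 2.06 and 5.12 RPM on day 0 and 80.7, 159, 83.3 and 146 RPM on day 4 and changed by 4.68 ± 0.58 (SE, adjusted p = 2.22e-07). Cldn7 had 6.94, 1.85, 4.11 and 7.68 RPM on day 0 and 18.8, 38.8, 25.9 and 42.6 RPM on day 4 and changed by 2.74 ± 0.56 (SE, adjusted p = 0.000386). The epithelial cadherin Cdh1 had 822, 402, 166 and 430.2 RPM on day 0 and 672, 906, 656 and 820.02 RPM on day 4, with 0.95 ± 0.31 (SE, adjusted p = 0.0235), just under the fold required. Jam2, Icam1, Dpp4, Alpl and Ncam1 fell. Dpp4, a surface peptidase, went from 133, 113, 120.2 and 155 RPM to 20.8, 7.76, 22.5 and 17.9 RPM, a change of -3.01 ± 0.45 (SE, adjusted p = 5.64e-06). Ncam1, a neural adhesion molecule, had 14.8, 25.9, 15.4 and 11.1 RPM on day 0 and 4.03, 2.59, 3.38 and 0.561 RPM on day 4 and changed by -2.92 ± 0.68 (SE, adjusted p = 0.00173). Itgb1, the common integrin beta chain, had 183, 352, 213 and 156 RPM on day 0 and 330.03, 236, 384 and 257 RPM on day 4, with 0.46 ± 0.24 (SE, adjusted p = 0.167). Without replicate 3 of day 0, which was low in many of these genes, 3 and not 7 members were called higher.

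The actin cytoskeleton list rose in 11 of 19 members tested and fell in 0 (median 1.60, 1.85 with bounds), where 12.2% of all genes rose. Many of these genes are targets of serum response factor, a transcription factor that binds the CArG box. Its own gene, Srf, had 32.9, 25.9, 14.4 and 15.4 RPM on day 0 and 48.4, 87.99, 48.99 and 76.2 RPM on day 4 and changed by 1.60 ± 0.30 (SE, adjusted p = 0.00013). The contractile genes were near 0 on day 0. Cnn1, the smooth muscle calponin, had 0.463, 0, 0 and 0.854 RPM on day 0 and 8.07, 25.2, 5.63 and 28.03 RPM on day 4, and Myl9, a myosin light chain, had 0, 0.463, 0 and 0 RPM on day 0 and 3.36, 21.4, 1.69 and 18.5 RPM on day 4, a ratio of 72.6 (95% counting interval 12.6 to 2904). Cnn2, the broadly expressed calponin, had 19.4, 9.72, 4.11 and 16.2 RPM on day 0 and 60.5, 73.8, 53.5 and 75.1 RPM on day 4 and changed by 2.62 ± 0.36 (SE, adjusted p = 1.52e-06). Cnn1 and Myl9 were higher in the 2 day 4 libraries labelled single.

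Keratins of simple epithelia rose within the same list. Krt18 had 4.16, 1.85, 2.06 and 2.56 RPM on day 0 and 73.9, 58.2, 81.7 and 59.4 RPM on day 4, a change of 4.74 ± 0.44 (SE, adjusted p = 5.73e-10). Its partner Krt8 had 3.70, 0.463, 0 and 4.27 RPM on day 0 and 14.8, 10.4, 14.6 and 6.17 RPM on day 4, a change of 2.75 ± 0.57 (SE, adjusted p = 0.000505). Tpm1, tropomyosin, had 47.7, 55.1, 35.97 and 51.2 RPM on day 0 and 139.8, 206, 145 and 199 RPM on day 4 and changed by 1.85 ± 0.21 (SE, adjusted p = 3.2e-08). Flna, the actin crosslinker filamin A, had 508, 366, 129 and 219 RPM on day 0 and 872, 711, 684 and 592 RPM on day 4 and changed by 1.39 ± 0.34 (SE, adjusted p = 0.00272). The general actins were higher by less than the fold required. Actb had 2588, 2765, 1124 and 1762 RPM on day 0 and 3735, 3130.2, 3599 and 3053 RPM on day 4, with 0.79 ± 0.20 (SE, adjusted p = 0.00403). Actg1 had 50.9, 52.8, 23.6 and 35.9 RPM on day 0 and 83.3, 69.9, 70.96 and 52.1 RPM on day 4, with 0.81 ± 0.25 (SE, adjusted p = 0.015). Vim, the mesenchymal filament protein, had 185, 179.7, 72.97 and 123 RPM on day 0 and 111, 55.6, 109 and 84.1 RPM on day 4, with -0.60 ± 0.32 (SE, adjusted p = 0.165), and was not called.

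The RefSeq promoter table for GRCm38.p6, the assembly that mm10 corresponds to, was searched for the CArG box in windows of 300 bases, 250 before and 50 after the start of the gene. The motif reads the same on both strands, so a single search covers both. Of the 20 listed members, 13 had a window, and those without included Actg2, Tagln, Actb, Ctgf, Cyr61 and Thbs1. A match was found in 4 of the 13, namely Cnn2, Myl9, Actg1 and Srf, and in 535 of 32851 windows of the table (1.63%). Among the 9 members with a window that rose, 3 held a match. The sequences around the matches are shown because they are the bases such a factor could read in genes of this list, with the CArG boxes in capitals and 25 bases on each side. They lie at chr10:79988519-79988578 (plus strand) for Cnn2, chr2:156775278-156775337 (plus strand) for Myl9, chr11:120348551-120348610 (minus strand) for Actg1 and chr17:46556190-46556269 (minus strand) for Srf, and are written in the direction of each gene.
Cnn2: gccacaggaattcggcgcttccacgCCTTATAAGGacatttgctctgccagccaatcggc
Myl9: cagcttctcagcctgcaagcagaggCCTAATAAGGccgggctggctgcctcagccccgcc
Actg1: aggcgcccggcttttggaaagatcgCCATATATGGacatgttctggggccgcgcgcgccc
Srf: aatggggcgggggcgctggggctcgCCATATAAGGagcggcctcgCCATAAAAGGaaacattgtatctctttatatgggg
The boxes begin 56 bases before the start in Cnn2, 161 in Myl9, 90 in Actg1 and 82 and 62 in Srf. A match is a description of the letters, and binding was not measured. Cnn2, Myl9 and Srf rose and Actg1 was not called.

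The extracellular matrix list was split, with 3 higher and 4 lower of 17 tested (median -0.41). The basement membrane chains moved in both directions. Lamb1 had 95.8, 32.4, 7.19 and 24.8 RPM on day 0 and 132, 148, 105 and 115 RPM on day 4, a change of 2.18 ± 0.53 (SE, adjusted p = 0.00249). Lama5 had 145, 43.1, 36.999 and 55.5 RPM on day 0 and 259, 291, 198 and 173 RPM on day 4, a change of 1.91 ± 0.37 (SE, adjusted p = 0.000212). Lama1 had 51.8, 8.80, 6.17 and 5.12 RPM on day 0 and 0.672, 5.82, 0.563 and 3.92 RPM on day 4, a change of -2.68 ± 0.78 (SE, adjusted p = 0.0111). Lama1 was no longer called without replicate 1 of day 0, its highest library (-1.93), nor without replicate 1 (-2.23) or 3 (-2.14) of day 4. Nid1, which links laminin to collagen IV, had 438, 176, 51.4 and 110.1 RPM on day 0 and 20.2, 21.998, 29.8 and 14.01 RPM on day 4 and changed by -2.80 ± 0.52 (SE, adjusted p = 0.000131). Col18a1, the precursor of endostatin, had 189, 273, 87.4 and 65.7 RPM on day 0 and 758, 591, 729.9 and 499 RPM on day 4 and changed by 2.28 ± 0.29 (SE, adjusted p = 2.62e-07). Spp1, the secreted phosphoprotein osteopontin, had 1135, 1253, 1258 and 1681 RPM on day 0 and 226, 159, 228 and 189 RPM on day 4 and changed by -2.73 ± 0.26 (SE, adjusted p = 1.21e-09). Fibronectin (Fn1) had 1714, 526, 251 and 324 RPM on day 0 and 304, 298, 279 and 247 RPM on day 4, with -0.89 ± 0.46 (SE, adjusted p = 0.159). Sparc had 629, 599, 409 and 656 RPM on day 0 and 417, 245, 440.4 and 269 RPM on day 4, with -0.77 ± 0.20 (SE, adjusted p = 0.00435). The highest day 0 values of Fn1, Nid1 and Lama1 were in replicate 1, the library in which long genes stood highest. The fourth member that fell was Serpinh1, a collagen chaperone, named after its values were seen.

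Imprinted genes rose in 12 of 21 members tested and fell in 1, with a median of 2.71. H19, the maternally expressed RNA beside Igf2, had 0.463, 0.926, 1.03 and 3.41 RPM on day 0 and 233, 125, 237 and 126 RPM on day 4 and changed by 7.27 ± 0.57 (SE, adjusted p = 1.54e-11). Igf2, the growth factor of the same locus, had 0.925, 0.463, 1.03 and 0 RPM on day 0 and 12.1, 3.23, 5.63 and 2.80 RPM on day 4 and changed by 2.71 ± 0.65 (SE, adjusted p = 0.00218). It lost its call with libraries thinned to one depth (1.55) and with voom (adjusted p up to 0.15 in limma). Dlk1 had 0.463, 0.463, 0 and 0 RPM on day 0 and 6.72, 7.12, 6.76 and 6.17 RPM on day 4, a ratio of 21.6 (95% counting interval 5.63 to 184). Meg3, the RNA of the Dlk1 locus, had 22.7, 0.463, 2.06 and 35.9 RPM on day 0 and 134, 287, 99.1 and 162 RPM on day 4, a change of 4.90 ± 0.77 (SE, adjusted p = 1.05e-05). The day 0 level of Meg3 was itself uneven.

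Paternally expressed members included Peg10, a retrotransposon-derived gene of the placenta, with 17.1, 8.33, 6.17 and 18.8 RPM on day 0 and 1036, 459, 979 and 400.2 RPM on day 4, a change of 5.86 ± 0.49 (SE, adjusted p = 5.26e-11). Peg3, a zinc finger gene, had 228, 79.6, 35.97 and 82.8 RPM on day 0 and 803, 514, 696 and 425 RPM on day 4 and changed by 2.79 ± 0.46 (SE, adjusted p = 2.19e-05). Mest had 43.5, 35.7, 11.3 and 37.6 RPM on day 0 and 319, 302, 291 and 269 RPM on day 4 and changed by 3.37 ± 0.27 (SE, adjusted p = 2.25e-11). Snrpn, a splicing protein gene, had 85.6, 123, 82.2 and 97.3 RPM on day 0 and 444, 481, 475 and 507 RPM on day 4 and changed by 2.32 ± 0.21 (SE, adjusted p = 2.7e-10). Nnat, neuronatin, had 2.78, 2.78, 0 and 1.71 RPM on day 0 and 32.9, 78.9, 42.8 and 66.1 RPM on day 4 and changed by 4.80 ± 0.62 (SE, adjusted p = 3.81e-07). The genes named here did not overlap between the days. Cdkn1c, the maternally expressed cell cycle inhibitor p57, had 1.85, 4.17, 4.11 and 4.27 RPM on day 0 and 45.7, 18.8, 34.9 and 31.4 RPM on day 4 and changed by 3.19 ± 0.37 (SE, adjusted p = 4.44e-08). Plagl1, a zinc finger gene, was the single member that fell, with 72.2, 66.2, 33.9 and 15.4 RPM on day 0 and 4.71, 3.23, 3.38 and 1.68 RPM on day 4, a change of -3.70 ± 0.64 (SE, adjusted p = 4.67e-05). Slc38a4 and Impact were not called (-0.00 ± 0.27 (SE, adjusted p = 0.994) for the former and -0.11 ± 0.24 (SE, adjusted p = 0.785) for the latter). The reads were not assigned to alleles, so these are total levels. On day 4, 13 of the 21 were higher in both libraries labelled double and 4 were lower, beside 22.7% and 27.7% of all genes.

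Part of the list of glucose use rose on day 4. Of 23 glycolysis and transport genes tested, 9 rose and 1, Ldhb, fell (median 0.70), and their summed level went from 7531 to 13421 RPM on day 0 to 17129 to 19347 RPM on day 4. Slc2a1, the glucose transporter GLUT1, had 372, 545, 205 and 246 RPM on day 0 and 1395, 1337, 1279 and 1162 RPM on day 4 and changed by 2.02 ± 0.20 (SE, adjusted p = 2.96e-09). Slc16a3, the lactate exporter MCT4, had 108, 117, 45.2 and 86.2 RPM on day 0 and 421, 417, 345 and 371 RPM on day 4 and changed by 2.21 ± 0.21 (SE, adjusted p = 1.57e-09). Pfkl, the liver form of phosphofructokinase, had 316, 242, 75.03 and 144 RPM on day 0 and 577, 756, 623 and 757 RPM on day 4 and changed by 1.99 ± 0.30 (SE, adjusted p = 4.63e-06). Pdk1, the kinase that holds pyruvate out of the mitochondrion, had 76.8, 70.4, 56.5 and 80.2 RPM on day 0 and 201, 334, 221 and 365 RPM on day 4 and changed by 1.95 ± 0.24 (SE, adjusted p = 1.69e-07). None of these 4 overlapped between the days.

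Further down the pathway, Eno1, enolase, had 586, 595, 312 and 512 RPM on day 0 and 1049, 1103, 1056 and 1207 RPM on day 4 and changed by 1.18 ± 0.21 (SE, adjusted p = 5.69e-05). Pkm, pyruvate kinase, had 2912, 2275, 1011 and 1797 RPM on day 0 and 3573, 4218, 3782 and 4319 RPM on day 4 and changed by 1.09 ± 0.25 (SE, adjusted p = 0.00121). Both were lowest in replicate 3 of day 0, and without it neither was called (0.97 for Eno1 and 0.79 for Pkm). Pfkfb3, an activator of phosphofructokinase, changed by 1.30 ± 0.31 (SE, adjusted p = 0.00233) and lost its call without replicate 4 of day 0 (0.98). Ldha, lactate dehydrogenase A, had 1365, 1829, 1672 and 1992 RPM on day 0 and 2417, 2858, 2547 and 3278 RPM on day 4, with 0.70 ± 0.20 (SE, adjusted p = 0.00964). Aldoa, aldolase, had 2669, 3021, 1785 and 2934 RPM on day 0 and 3505, 3152, 3769 and 3812 RPM on day 4, with 0.48 ± 0.20 (SE, adjusted p = 0.0724), neither of them called.

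Families of nuclear respiratory chain genes had medians below 0, though most members were not called and 6.4% of all genes fell. Of 13 cytochrome c oxidase subunits tested, 3 fell and 0 rose (median -0.77), of 37 complex I subunits 4 (Ndufs5, Ndufb4, Ndufv2 and Ndufb8) fell and 1 (Ndufa4l2) rose (median -0.61), and of 13 ATP synthase subunits 2 (Atp5k and Atp5j2) fell and 0 rose (median -0.74). Many of these genes are short, and when the trend on exon length was removed in each library the medians were -0.46, -0.35 and -0.68, and the falls were 1, 3 and 0. Cox7a1, a subunit isoform of heart and muscle, had 12.5, 30.6, 82.2 and 44.4 RPM on day 0 and 4.03, 3.88, 3.38 and 3.36 RPM on day 4 and changed by -3.23 ± 0.53 (SE, adjusted p = 2.08e-05). Cox5a had 289.6, 533, 436 and 377 RPM on day 0 and 211, 165, 224 and 168 RPM on day 4, a change of -1.07 ± 0.23 (SE, adjusted p = 0.000647). Cox6b2, a testis isoform, had 42.1, 77.8, 50.4 and 41.8 RPM on day 0 and 23.5, 18.8, 27.03 and 24.1 RPM on day 4, a change of -1.15 ± 0.26 (SE, adjusted p = 0.00118). Both lost the call without replicate 2 of day 0 (-0.93 for Cox5a and -0.95 for Cox6b2). Cytosolic ribosomal proteins had a median of -0.43 over 84 genes (-0.26 with the length trend removed), with 0 higher and 3 (Rps27a, Rps23 and Rpl39l) lower.

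The lipid synthesis genes rose in a share near that of all genes. Of 26 cholesterol and fatty acid synthesis genes tested, 3 rose and 0 fell (median 0.13). Of all genes tested, 12.2% rose and 6.4% fell (median 0.12). The count of rises was 1 without replicate 3 of day 0 and 5 without replicate 2 of day 0. Among the 3 that rose were Lss, lanosterol synthase, with 1.51 ± 0.42 (SE, adjusted p = 0.00791), and Acaca, acetyl-CoA carboxylase, with 1.34 ± 0.48 (SE, adjusted p = 0.0359). Lss was 0.84 and not called without replicate 3 of day 0, and Acaca lost its call in 6 of the 8 cases with 1 library left out. Acly, which makes cytosolic acetyl-CoA, had 911, 746, 337 and 496 RPM on day 0 and 623, 663, 635 and 618 RPM on day 4, with 0.13 ± 0.25 (SE, adjusted p = 0.756). Scd2, a desaturase, had 1815, 938, 436 and 589 RPM on day 0 and 783, 906, 755 and 631 RPM on day 4, with -0.09 ± 0.34 (SE, adjusted p = 0.882).

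The threonine, serine and one-carbon genes, on which naive mouse cells depend, gave 3 higher and 2 lower of 18 tested (median -0.10). Tdh, threonine dehydrogenase, had 399, 584, 406 and 440.5 RPM on day 0 and 108, 56.3, 105 and 78.5 RPM on day 4 and changed by -2.43 ± 0.58 (SE, adjusted p = 0.002). Within the glycine cleavage system, Gldc, the decarboxylase, had 202, 151, 48.3 and 99.02 RPM on day 0 and 345, 488, 361 and 442 RPM on day 4 and rose by 1.88 ± 0.28 (SE, adjusted p = 3.63e-06). Amt, the aminomethyltransferase, had 140.2, 213, 195 and 168 RPM on day 0 and 79.99, 47.2, 82.2 and 58.3 RPM on day 4 and changed by -1.44 ± 0.25 (SE, adjusted p = 5.05e-05). Mthfd2, a mitochondrial folate enzyme, had 181, 152, 97.6 and 114 RPM on day 0 and 278, 359.7, 306 and 369 RPM on day 4 and rose by 1.30 ± 0.24 (SE, adjusted p = 0.000124). Psat1, of serine synthesis, had 864, 1270.1, 1732 and 1734 RPM on day 0 and 737, 877, 791 and 1107 RPM on day 4, with -0.64 ± 0.25 (SE, adjusted p = 0.0618). Shmt2 had 396, 363, 173 and 259 RPM on day 0 and 383, 362, 424 and 375 RPM on day 4, with 0.45 ± 0.24 (SE, adjusted p = 0.172).

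Of 24 cell cycle regulators tested, 5 rose and 1, Rbl1, fell (median 0.22). Without replicate 4 of day 0 or replicate 1 or 2 of day 4 the count of falls was 0, and without replicate 3 of day 4 it was 2. Ccnd2, cyclin D2, had 1.85, 2.78, 0 and 0 RPM on day 0 and 43.02, 32.997, 39.98 and 27.5 RPM on day 4 and changed by 4.68 ± 0.53 (SE, adjusted p = 3.74e-08), so a D cyclin was gained while Ccnd1 was not called. Besides Myc, its relatives Mycn, with 74.5, 110.2, 51.4 and 47.8 RPM on day 0 and 172, 234, 145 and 173 RPM on day 4 (1.41 ± 0.35 SE, adjusted p = 0.0027), and Mycl1, with 34.7, 31.95, 21.6 and 13.7 RPM on day 0 and 54.4, 89.3, 55.2 and 66.7 RPM on day 4 (1.44 ± 0.28 SE, adjusted p = 0.000248), rose as well. Cdk1, the mitotic kinase, had 267, 443, 642 and 464 RPM on day 0 and 280.3, 234, 312 and 278 RPM on day 4, with -0.66 ± 0.22 (SE, adjusted p = 0.0262). Cdk4, the partner of D cyclins, had 533, 753, 794 and 860.5 RPM on day 0 and 726, 666, 744 and 767 RPM on day 4, with 0.00 ± 0.19 (SE, adjusted p = 0.994). Cdkn1c also belongs to this list and is given above.

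Among 15 BCL2 family genes tested, 5 rose and 1 fell (median 0.50). The 5 were all BH3-only genes, which promote cell death. Bcl2l11 (Bim) had 17.1, 15.7, 7.19 and 12.8 RPM on day 0 and 64.5, 91.2, 66.5 and 54.9 RPM on day 4, a change of 2.44 ± 0.30 (SE, adjusted p = 1.92e-07). Pmaip1 (Noxa) had 44.9, 138, 52.4 and 27.3 RPM on day 0 and 140.5, 282, 162 and 257 RPM on day 4, a change of 1.88 ± 0.32 (SE, adjusted p = 3.29e-05). Bmf had 27.8, 11.1, 3.08 and 12.8 RPM on day 0 and 34.3, 32.997, 31.5 and 38.7 RPM on day 4, a change of 1.71 ± 0.43 (SE, adjusted p = 0.00329). Bbc3 (Puma) had 15.3, 18.98, 16.4 and 11.1 RPM on day 0 and 36.3, 30.4, 41.1 and 35.3 RPM on day 4, a change of 1.23 ± 0.27 (SE, adjusted p = 0.000749). Hrk was called at 1.61 ± 0.57 (SE, adjusted p = 0.0354) but lost the call in 7 of 8 cases with 1 library left out. Bad, a BH3-only gene too, fell from 13.4, 15.7, 21.6 and 29.9 RPM to 5.38, 6.47, 6.19 and 11.2 RPM, a change of -1.45 ± 0.33 (SE, adjusted p = 0.00113). The survival gene Mcl1 had 651, 600.1, 508 and 674 RPM on day 0 and 848, 831, 858 and 890.1 RPM on day 4, with 0.50 ± 0.14 (SE, adjusted p = 0.00748). The effector Bax had 173, 269, 261 and 231 RPM on day 0 and 273, 210.3, 302 and 264 RPM on day 4, with 0.18 ± 0.21 (SE, adjusted p = 0.583). Neither was called.

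The subunits of the BAF chromatin remodelling complex depended on single libraries. As deposited, 6 of 23 tested rose and 1 fell (median 0.60), but the count of higher members was 2 without replicate 3 of day 0 or replicate 2 of day 4, 3 without replicate 4 of day 0, 9 without replicate 1 of day 0, 2 with the length trend removed in each library and 13 without the X14 libraries of day 0. Arid2, a subunit of the PBAF form, had 108, 42.1, 26.7 and 28.2 RPM on day 0 and 124, 181, 115 and 154 RPM on day 4, a change of 1.71 ± 0.40 (SE, adjusted p = 0.00171). Smarcd1 had 188, 85.2, 28.8 and 64.02 RPM on day 0 and 199, 283, 172 and 268 RPM on day 4, a change of 1.62 ± 0.38 (SE, adjusted p = 0.00168). Arid1a, the DNA-binding subunit of canonical BAF, had 251, 88.4, 40.1 and 64.9 RPM on day 0 and 193, 285, 171 and 207 RPM on day 4, a change of 1.27 ± 0.43 (SE, adjusted p = 0.0267), and was not called without replicate 3 of day 0 (0.90). Dpf1 (1.32 ± 0.49 SE, adjusted p = 0.043) and Smarcd3 (-1.91 ± 0.71 SE, adjusted p = 0.0429) lost their calls in 6 and 5 of the 8 cases. Actl6a had 290.1, 380.2, 503 and 517 RPM on day 0 and 269, 229.7, 259 and 309.96 RPM on day 4, with -0.63 ± 0.17 (SE, adjusted p = 0.00721). Smarcc1 had 415, 253, 99.7 and 154 RPM on day 0 and 358, 397, 321 and 397 RPM on day 4, with 0.87 ± 0.31 (SE, adjusted p = 0.0387). In replicate 3 of day 0 long genes stood lowest relative to short ones, and the part of this in the result beyond these counts was not tested.

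Of 24 Polycomb subunits tested, 6 rose and 3 (Mtf2, Pcgf1 and Cbx8) fell (median 0.10), with 3 higher without replicate 3 of day 0 and 3 with the length trend removed. The falls were 1 without replicate 3 or 4 of day 0 or replicate 1 or 2 of day 4. Of the methyltransferases of Polycomb repressive complex 2, Ezh1 was called and Ezh2 was not. Ezh1 had 37.01, 16.2, 11.3 and 21.3 RPM on day 0 and 37.6, 46.6, 46.7 and 53.8 RPM on day 4, a change of 1.23 ± 0.32 (SE, adjusted p = 0.0047), which was 0.97 without replicate 3 of day 0. Ezh2 had 273, 248, 179 and 239.9 RPM on day 0 and 224, 210.3, 244 and 223 RPM on day 4, with -0.05 ± 0.15 (SE, adjusted p = 0.87). The accessory proteins that bring the complex to DNA moved in opposite directions. Jarid2 had 291, 241, 83.2 and 81.1 RPM on day 0 and 595, 547, 625 and 439 RPM on day 4, a change of 1.89 ± 0.35 (SE, adjusted p = 0.000137). Mtf2 had 486, 453, 436 and 441 RPM on day 0 and 178, 181, 187 and 219 RPM on day 4, a change of -1.25 ± 0.16 (SE, adjusted p = 1.92e-07). The core subunit Suz12 had 484, 422, 219 and 195 RPM on day 0 and 301, 201, 319 and 192 RPM on day 4, with -0.31 ± 0.28 (SE, adjusted p = 0.443). Of the chromodomain readers, Cbx6 had 57.4, 39.8, 25.7 and 28.2 RPM on day 0 and 71.9, 94.5, 94.05 and 86.9 RPM on day 4, a change of 1.27 ± 0.24 (SE, adjusted p = 0.000151). Cbx7 had 162, 87.1, 69.9 and 80.2 RPM on day 0 and 178, 249.7, 179 and 228 RPM on day 4, a change of 1.13 ± 0.25 (SE, adjusted p = 0.000825), which was 0.98 and not called without replicate 3 of day 0.

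The comparison also covers the start of X chromosome inactivation. Of 14 regulators tested, 4 (Rlim, Xist, Tsix and Tsx) rose and 0 fell (median 0.90). Rlim, the X-linked ubiquitin ligase that activates Xist, had 105, 145, 86.3 and 83.7 RPM on day 0 and 637, 470.4, 658 and 434 RPM on day 4 and changed by 2.40 ± 0.35 (SE, adjusted p = 3.7e-06). Xist, the RNA that silences the X chromosome, had 0.925, 0.926, 7.19 and 0.854 RPM on day 0 and 59.8, 9.06, 34.4 and 4.48 RPM on day 4 and changed by 3.49 ± 1.004 (SE, adjusted p = 0.00986), with the higher day 4 values in the 2 libraries labelled double. Xist lost its call with voom on the recovered reads, with replicate number 1 left out on all 9 days and without the X14 libraries of day 0 (adjusted p up to 0.0998 in limma). Tsix, which is transcribed across Xist from the other strand, had 1.85, 0, 1.03 and 0.854 RPM on day 0 and 14.8, 8.41, 6.19 and 4.48 RPM on day 4 and changed by 3.08 ± 0.79 (SE, adjusted p = 0.0039). Whether counting used the strand is not stated, so reads of Xist and Tsix cannot be told apart with certainty. Hnrnpu, a nuclear matrix protein, had 1179, 903, 322 and 523 RPM on day 0 and 1189.7, 1377, 1202 and 1128 RPM on day 4, with 0.91 ± 0.27 (SE, adjusted p = 0.0128). Lbr, a lamin receptor, had 397, 385, 329.9 and 411 RPM on day 0 and 461, 338, 503 and 351 RPM on day 4, with 0.10 ± 0.16 (SE, adjusted p = 0.697). Without replicate 1 of day 0, 7 regulators were called higher.

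Germ cell genes that naive mESCs express did not fall as a group. Of 20 germline and meiosis genes tested, 0 rose and 2 fell (median -0.21), a share of members lower that is not far from the 6.4% of all genes. These 2 were Stra8 and Dazl, an RNA-binding protein of germ cells, which had 103, 366, 256 and 75.97 RPM on day 0 and 36.3, 9.70, 33.2 and 13.5 RPM on day 4 and changed by -3.05 ± 0.72 (SE, adjusted p = 0.002). Rhox5, an X-linked homeobox gene of the reproductive tract, had 229, 865, 1011 and 397 RPM on day 0 and 1062, 259, 1171 and 347 RPM on day 4, with 0.12 ± 0.72 (SE, adjusted p = 0.918). Hsf2bp had 108, 128, 145 and 137 RPM on day 0 and 134, 91.9, 129 and 100.3 RPM on day 4, with -0.20 ± 0.54 (SE, adjusted p = 0.838). The spread within the days was wide in Dazl and Rhox5 and narrower in Hsf2bp, whose SE also draws on the other days. On day 4 both libraries labelled double stood above both labelled single in 15 of the 20 and below them in 1. Of all genes tested, 22.7% and 27.7% had these orders. Of 15 genes of germline genome defence tested, 2 rose and 0 fell (median -0.29), namely Dnmt3l and Mael, a piRNA pathway protein with 6.01, 19.9, 11.3 and 8.54 RPM on day 0 and 58.5, 23.3, 51.8 and 30.8 RPM on day 4, whose change of 1.89 ± 0.71 (SE, adjusted p = 0.0466) lost its call in 6 of 8 cases. Without replicate 1 of day 0 or replicate 3 of day 4, 2 members of this list were called lower. Tdrd12 had 112, 242, 304 and 233 RPM on day 0 and 155, 92.5, 142 and 129 RPM on day 4, with -0.72 ± 0.53 (SE, adjusted p = 0.335). Tex19.1 had 121, 271, 286 and 195 RPM on day 0 and 144, 39.5, 154 and 51.6 RPM on day 4, with -1.33 ± 0.57 (SE, adjusted p = 0.0801). With replicate number as a block Tex19.1 was called (adjusted p = 0.00433).

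Lists of markers of later lineages held few called genes. Of 12 primitive streak and mesoderm genes tested, 0 rose and 1, Gsc, fell (1 rose without replicate 4 of day 4), and their summed level was 4.11 to 15.3 RPM on day 0 and 4.53 to 27.03 RPM on day 4. T (brachyury), the defining factor of the streak, had no read on day 4, and Eomes had 6.01, 4.63, 0 and 4.27 RPM on day 0 and 17.5, 1.94, 14.1 and 3.92 RPM on day 4, with 1.02 ± 0.75 (SE, adjusted p = 0.336). Of 8 endoderm genes tested, 0 passed in either direction, with a sum of 0 to 12.5 RPM on day 0 and 2.82 to 8.41 RPM on day 4. Among the endoderm genes, 1 was called higher without replicate 1 of either day, and 1 lower without replicate 2 or 3 of day 0. Gata4, Gata6, Sox17 and Foxa2 had no read in the 4 day 4 libraries. Of 7 neural genes tested, 0 rose and 1 fell (Ncam1), and 1 rose without replicate 1 of day 0 or replicate 3 of day 4. The summed level of the neural list was 112 to 188 RPM on day 0 and 62.5 to 121 RPM on day 4. Nes, an intermediate filament of progenitors, had 22.7, 17.6, 8.22 and 9.39 RPM on day 0 and 17.5, 53.1, 14.6 and 34.8 RPM on day 4, with 0.98 ± 0.44 (SE, adjusted p = 0.0943). Tubb3, a neuronal tubulin, had 82.4, 106, 69.9 and 78.5 RPM on day 0 and 41.002, 52.4, 30.97 and 56.6 RPM on day 4, with -0.92 ± 0.42 (SE, adjusted p = 0.106).

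Among 10 trophoblast and surface ectoderm genes tested, 2 rose and 1 fell, where 12.2% of all genes rose and 6.4% fell. Krt19 had 1.85, 0.926, 0 and 0 RPM on day 0 and 12.8, 7.76, 17.5 and 3.92 RPM on day 4 and Ascl2, a placental helix-loop-helix factor that is also imprinted, had 6.48, 5.56, 1.03 and 0 RPM on day 0 and 30.9, 18.1, 30.4 and 17.4 RPM on day 4. Their changes were 3.11 ± 0.47 (SE, adjusted p = 5.34e-06) for the former and 3.34 ± 0.62 (SE, adjusted p = 0.000119) for the latter. Both had their highest mean on day 8. Tfap2c, an AP-2 factor of the trophoblast that naive mESCs also express, had 93.9, 120.4, 76.1 and 93.05 RPM on day 0 and 36.3, 3.88, 30.4 and 2.24 RPM on day 4 and changed by -3.26 ± 0.66 (SE, adjusted p = 0.00036). The defining trophoblast factor Cdx2 had no read on day 4. Of 7 fibroblast genes tested, 1 rose, Thy1, a surface protein that neurons and other cells carry as well, with 2.31, 4.63, 0 and 0 RPM on day 0 and 24.9, 19.4, 32.1 and 11.2 RPM on day 4 (3.62 ± 0.58 SE, adjusted p = 1.46e-05). Without replicate 3 of day 0 or replicate 1 of day 4, 2 fibroblast genes were called higher. The collagens Col1a1 and Col1a2 together had no more than 2 RPM in any day 4 library. Of 4 blood cell genes tested, 0 passed, but 2 were called higher without replicate 1 of day 0 and 1 without replicate 2 of day 0 or replicate 1 or 3 of day 4. Of 12 genes of the 2-cell-like state tested, 0 passed, and the sum of the list was 21.6 to 41.6 RPM on day 0 and 24.9 to 56.9 RPM on day 4, with Zfp365 as its highest member in each library (31.5, 35.7, 16.4 and 11.95 RPM on day 0 and 22.9, 45.3, 26.5 and 38.1 RPM on day 4).

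Gene families were ranked by the share of their tested members called, among families with at least 5 tested. The highest share of rises was that of the Sprouty and Spred inhibitors, with 5 of 6 higher and 0 lower. These were Spry4, Spry1 with 11.6, 8.80, 1.03 and 5.98 RPM on day 0 and 16.8, 22.6, 18.6 and 35.3 RPM on day 4 (2.16 ± 0.44 SE, adjusted p = 0.000398), Spred3 with 0.463, 0, 0 and 0 RPM on day 0 and 6.05, 16.8, 9.01 and 11.2 RPM on day 4 (a ratio of 69.6 (95% counting interval 12.1 to 2788)), and Spred1 and Spred2. Claudins followed with 6 of 10 higher, among them Cldn3, which was called at 1.48 ± 0.52 (SE, adjusted p = 0.0323) but lost the call in 5 of 8 cases with 1 library left out. Keratins had 4 of 9 higher (Krt8, Krt17, Krt18 and Krt19), forkhead factors 11 of 25, dual-specificity phosphatases 8 of 21 and cadherins 3 of 8 (Cdh3, Cdh10 and Cdh24). Dusp3, which acts on ERK and JNK, had 6.48, 5.09, 6.17 and 1.71 RPM on day 0 and 29.6, 22.6, 32.1 and 20.7 RPM on day 4 and changed by 2.58 ± 0.39 (SE, adjusted p = 5.76e-06). The cadherin Cdh3 was called at 1.17 ± 0.44 (SE, adjusted p = 0.0469) and lost its call in 4 of 8 cases.

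The forkhead rises were led by Foxp1 and Foxi3. Foxp1, whose isoforms affect pluripotency genes, had 14.3, 1.39, 2.06 and 8.54 RPM on day 0 and 118, 119.7, 100.2 and 104 RPM on day 4 and changed by 4.67 ± 0.73 (SE, adjusted p = 9.86e-06). Foxi3, a factor of cranial ectoderm, had no read in any of the 4 libraries on day 0 and 10.8, 18.1, 9.57 and 15.1 RPM on day 4, at least 28.8-fold higher. Both had their highest mean on day 4, as did Foxd3. The background for these counts is the 12.2% of all genes called higher, and no test of a family was made.

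The highest shares of falls were those of the S100 proteins (2 of 7), the serpins (4 of 17), the cytochrome c oxidase subunits (3 of 13), the KLF factors (3 of 15), the laminins (2 of 10) and the protocadherins (1 of 6), where 6.4% of all genes fell. With the length trend removed, 1 of the cytochrome c oxidase subunits and 2 of the KLF factors were lower. S100a13, a calcium-binding protein that exports FGF1, had 14.8, 39.4, 34.9 and 14.5 RPM on day 0 and 0, 0, 1.13 and 0 RPM on day 4 and was 85.7 (95% counting interval 23.3 to 713) times lower. Its relative S100a1 had 7.40, 15.7, 27.7 and 9.39 RPM on day 0 and 2.69, 0, 0 and 2.80 RPM on day 4 and changed by -3.43 ± 0.57 (SE, adjusted p = 2.4e-05). Serping1, the complement C1 inhibitor, had 18.97, 13.9, 10.3 and 10.2 RPM on day 0 and 4.71, 5.18, 3.38 and 5.04 RPM on day 4 and changed by -1.52 ± 0.36 (SE, adjusted p = 0.00188). Serpinb6c, Serpinb1a and Serpinh1 were the other serpins that fell. Lamb2 was called at -1.14 ± 0.37 (SE, adjusted p = 0.0215) and was -0.78 and not called without replicate 1 of day 0. In several of these families members moved in both directions, with 2 KLF factors (Klf7 and Klf13), 2 laminins (Lama5 and Lamb1) and 1 protocadherin (Pcdh1) higher.

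**Figure D5:**
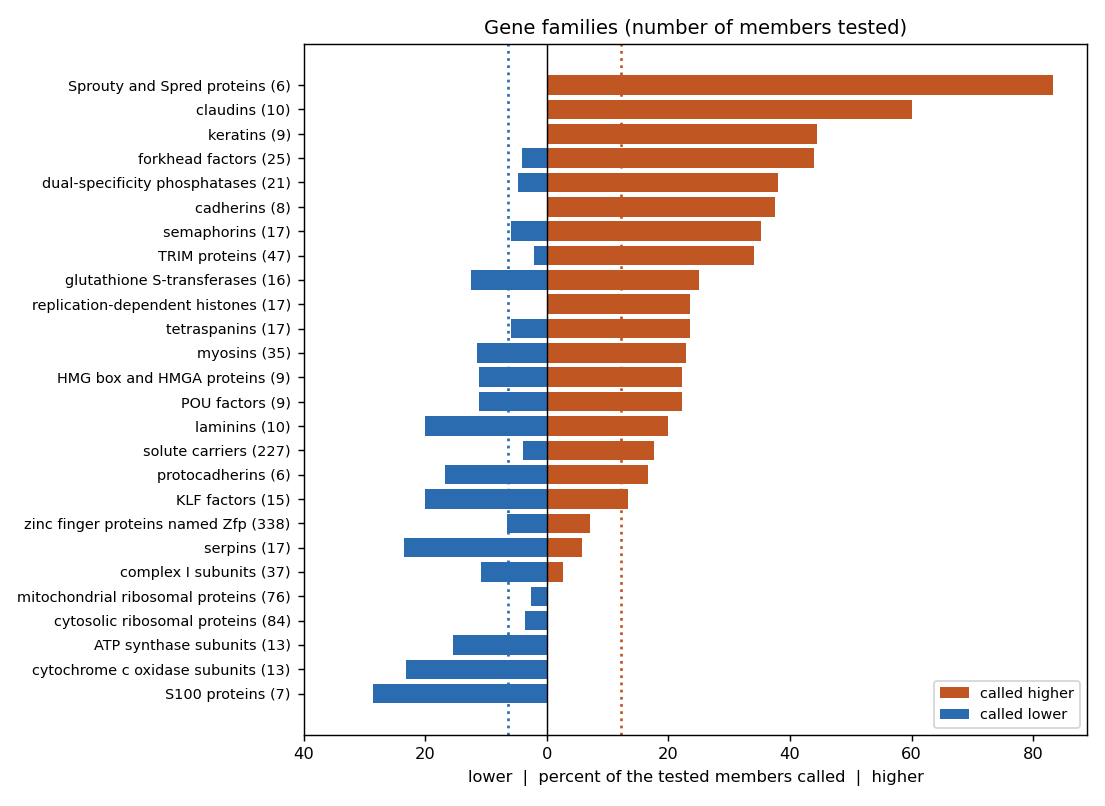
Percent of the tested members of each gene family called higher (orange, to the right) or lower (blue, to the left) on day 4, with the number tested in brackets and the shares of all genes tested, 12.2% and 6.4%, as dotted lines. Sprouty and Spred proteins and claudins have the longest bars to the right, and S100 proteins, serpins and cytochrome c oxidase subunits those to the left.

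A test of the difference in the change from day 0 to day 4 between X18 and X14 (limma, interaction of day and line) called 3 of 14612 genes (0.0205%), while 2086 genes had an unadjusted p under 0.05. With the 8 libraries alone it called 0. No named member was among the 3, and this test with 2 libraries a line and day does not show that the lines act alike.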

How the data were processed

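Reads were aligned to mm10 by the authors (TopHat2 2.0.12 is named in the submitters' processing notes) and quantified in SeqMonk. The annotation version and whether counting used strand are not given in the sources used here, so overlapping and antisense genes are uncertain, as are genes with near-identical copies such as ribosomal protein and glycolysis genes. The deposited table holds log2 values that the authors corrected for exon length and for library size, with 0 reads entered as 0.9 read. All of them resolved to whole reads (tolerance 0.01), from which RPM, depth and floors were computed. The design had assumed log2 RPM, so the filter, at least 1 RPM in at least 4 of the 36 libraries, was applied with the length undone. It left 14612 of 25965 genes.

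Day 4 was contrasted with day 0 in limma 3.58.1 (R 4.3.3, lmFit and eBayes with trend, two-sided, Benjamini-Hochberg adjustment) on these log2 values. All 36 libraries entered the fit, whose single factor was day. The difference between lines was an interaction of day and line in the same genes. Fold changes against groups without reads used a floor of 3 reads over the 4 libraries, and ratios with 1 to 3 reads carry 95% counting intervals. Floors and intervals cover counting error only.

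The gene lists and families, and the choice of this comparison, were made with earlier results of these data known. Named genes are the markers, the 12 largest rises and falls that were called, moved the same way in all 4 pairs and had at least 10 RPM on the higher day, and, with the same minimum, up to 5 called members of each list and up to 3 of each of 12 families, the 6 with the largest share higher and the 6 with the largest share lower, with up to 2 uncalled members of each list. Esrrb, Nr0b1, Zfp42, Sox2, Lin28b, Epcam, Mest, Peg3, Snrpn, Dlk1, Igf2, Tpm1, Srf, Actg1, Flna, Pkm, Eno1, Lama5, Bbc3 and Tsix, and genes named to complete a count, were added after their values were seen. Some members of the lists are counted but not reported here by name. Python 3.11.15 (pandas 2.3.3, numpy 2.4.6, scipy 1.17.1, matplotlib 3.10.9) was used for tables and figures, and the fit was tested on simulated data. Alternatives covered the fit, scaling, filter, pseudocount, depth, gene length, replicate block and libraries left out.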

Additional observations from a re-analysis of the deposited data

Results flagged for a closer look

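Named genes were examined for single libraries that stood apart, in each day's group of 4 libraries with a mean of at least 10 RPM, on the log2(RPM + 1) scale. In 4 of the 334 groups, 1 library stood apart from the other 3 by Dixon's test at 95%. Chance alone would set apart about 5% of such groups. Tdg had 4.11 RPM in replicate 3 of day 0, against 11.95 to 13.4 RPM in the other day 0 libraries. Tet1 had 339.6 RPM in replicate 1 of day 0, against 76.8 to 98.2 RPM. Mest had 11.3 RPM in replicate 3 of day 0, against 35.7 to 43.5 RPM. Acaca had 75.7 RPM in replicate 2 of day 4, against 49.0 to 51.6 RPM.

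In 3 genes the lines X14 and X18 differed in their change between the days (limma interaction, adjusted over 14612 genes). Lrfn1, a synaptic adhesion protein, changed by 0.66 in X14 and 4.13 in X18, a difference of 3.47 on the log2 scale (adjusted p = 0.021). Kctd13, an adaptor of a ubiquitin ligase, changed by 1.15 and 4.18, a difference of 3.04 (adjusted p = 0.0118). Egln3, an oxygen-sensing prolyl hydroxylase, changed by 2.26 and 4.14, a difference of 1.89 (adjusted p = 0.0111). In all 3 the day 0 libraries of X18 were lower than those of X14. With the 8 libraries alone, or after quantile normalization, 0 genes were called by limma, where 2086 genes had an unadjusted p under 0.05 in the test as reported.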

How the results depend on the processing

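With all libraries of both days kept, the count of 2720 genes stayed within 1.5 times of its value except with a mean of at least 10 RPM required, where fewer genes were tested and 1728 were called. Without the X14 libraries of day 0, 4355 were called. Leaving out single libraries of day 0 or day 4 gave 2004 to 3762 genes. With a replicate number left out on all 9 days, 1656 to 3828 were called. The lowest of these came without replicate 3 and the second lowest, 1808, without replicate 4. Without any minimum fold 3763 were called. With only the 8 libraries in the fit, 1850 genes were called, and with voom on the recovered reads 2572. With the trend on length removed in each library, an alternative chosen after the data were seen, 2619 were called. The test of the line difference gave 3 genes as reported, 5 with double and single as a covariate, 0 with the 8 libraries alone and 0 after quantile normalization. The cause of these differences was not tested.

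Same-numbered libraries did not all deviate together (correlation -0.18, -0.19, 0.23 and 0.34 for replicates 1 to 4 over 9049 genes). The main fit therefore did not pair libraries by number. The counts of called genes that moved the same way in all 4 same-numbered pairs did use the numbers as labelled. So did the choice of the largest rises and falls to be named, and both depend on that pairing. With the numbers of the X14 day 0 libraries exchanged, an order that the labels do not give, the first pair of correlations became 0.25 and 0.41. With replicate number as a block, 2926 genes were called, and 3037 with the numbers of the X14 day 0 libraries exchanged. Among named genes the block changed 3 calls: Tex19.1 (-1.33, adjusted p = 0.00433), Dab2 (1.45, 0.0418) and Dcn (1.37, 0.0254) passed with it. It ended none. With the exchanged numbers Gata4 (-1.67, adjusted p = 0.0378) and Gata3 (1.60, adjusted p = 0.0344) were called as well. Of the 155 named genes called, 122 kept the call in all 26 alternatives and 33 lost it in at least 1, and 0 reversed. Among the 33 were Dppa3, Tet2, Fgfr2, Lamb1, Mycn, Bmf and Flna, whose losses came when 2 or more libraries were left out or the depth or number of libraries in the fit was reduced. Of the 62 not called, 16 were called in some alternative and 17 changed sign in some. The 16 list medians at 0.5 or more from 0 kept their sign. Low depth limits the genes with few reads, for which a difference may not have been detectable.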

Other observations

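Genes of antigen presentation and of the interferon response rose on day 4, a group chosen after the values were seen, so its counts are a description. Of 12 genes of the class I antigen presentation pathway tested, 9 were higher and 0 lower, with a median log2 fold change of 2.57, against 0.12 for all genes. The 3 inducible subunits of the immunoproteasome were Psmb8, Psmb9 and Psmb10, and they were the only 3 called of 38 proteasome subunits tested. Psmb8 had no read in any of the 4 libraries on day 0 and 9.41, 6.47, 10.1 and 7.29 RPM on day 4, Psmb9 had 0.463, 0.926, 1.03 and 0.854 RPM on day 0 and 6.05, 3.23, 5.07 and 7.29 RPM on day 4, and Psmb10 had 3.24, 6.48, 11.3 and 16.2 RPM on day 0 and 57.8, 42.7, 74.9 and 56.6 RPM on day 4. Every day 4 library exceeded every day 0 library in these genes. The peptide transporter subunits Tap1 and Tap2 had 25.5, 7.76, 28.7 and 15.7 RPM and 16.1, 11.6, 14.1 and 5.61 RPM on day 4, against 3.70, 6.95, 0 and 4.27 RPM and 0.463, 0, 0 and 0 RPM on day 0. Tapbp, which loads peptides, changed by 2.21 ± 0.34 (SE, adjusted p = 7.02e-06), and Erap1, which trims them, by 4.13 ± 0.47 (SE, adjusted p = 4.41e-08). The class I heavy chains H2-D1 (2.70 ± 0.53 SE, adjusted p = 0.000281) and H2-K1 (2.01 ± 0.32 SE, adjusted p = 1.68e-05) rose, and their reads may be shared with related genes. The light chain B2m was not called (0.73 ± 0.39 SE, adjusted p = 0.172).

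Of 33 genes of the interferon response tested, 16 were higher and 3 lower (median 1.56). Irf1, an interferon regulatory factor, had 32.9, 21.3, 20.6 and 14.5 RPM on day 0 and 224, 91.9, 214 and 75.1 RPM on day 4 and changed by 2.66 ± 0.36 (SE, adjusted p = 8.31e-07). The GTPases Gbp2 and Igtp had 57.8, 11.6, 37.2 and 13.5 RPM and 28.9, 14.9, 36.6 and 10.7 RPM on day 4, with no read of Gbp2 on day 0 and 2.31, 0.463, 0 and 0 RPM for Igtp. Oasl2 had no read in any of the 4 libraries on day 0 and 36.3, 16.8, 41.1 and 7.85 RPM on day 4, at least 54.6-fold higher. Isg15, Ifit1, Irf7 and Usp18, which interferon usually induces strongly, had no read in the 8 libraries. Oas1a, Zc3hav1 and Xaf1 were lower. On day 4 both libraries labelled double stood above both labelled single in 23 of the 33 genes and below them in 1, beside 22.7% and 27.7% of all genes tested.

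The KLF family held members that moved in opposite directions. Klf7 had 6.01, 0.463, 0 and 0.854 RPM on day 0 and 11.4, 40.8, 20.8 and 29.7 RPM on day 4, a change of 4.25 ± 0.56 (SE, adjusted p = 6.03e-07), while Klf4, Klf2 and Klf5 fell. Klf13 changed by 1.71 ± 0.44 (SE, adjusted p = 0.00401). Both were chosen after their values were seen.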
